A study of Mus musculus with 24 samples.

Results

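The insulin-like growth factor binding proteins described here are the products of 7 mouse genes, Igfbp1 to Igfbp7, among 37074 gene names on the array. Their probes were taken by exact match of the gene name printed in the scanner files, which gave 10 of the 56605 probes. Of these 10 probes, 8 passed the filter on dim signals and were tested among 30003 probes, so that each of the 7 genes had at least 1 tested probe. RNA from the livers of 24 male C57Bl6J mice of the third generation of a breeding study was hybridised in 1 colour, with 1 array per mouse. The reference group (STD_Cont, n = 9) came from a control lineage, bred on a growing diet with high-oleic sunflower oil, and received a low-fat diet. The HFoleic group (HFD_Cont, n = 8) came from the same lineage and was given a high-fat, high-sucrose diet meant to cause obesity. The HFepa group (HFD_O3, n = 7) ate that obesogenic food too, but came from a lineage bred with fish oil rich in eicosapentaenoic acid, an omega 3 fatty acid. All mice were killed in the fasting period. The 24 mice hold no low-fat group of the fish oil lineage, so that HFepa against reference differs in diet, lineage and oil together. Nothing in the labels says which mice shared a litter, and all p-values measure the spread between these mice only.

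IGF binding proteins are secreted proteins that hold the growth factors IGF1 and IGF2 in the circulation and in tissue, and so set how much of each is free to reach its receptor. The liver is the main source of circulating IGF1 and also secretes several of the binding proteins. Igfbp1 is a textbook example of a hepatocyte gene that rises during fasting and is repressed by insulin through FOXO transcription factors, and its mRNA is also induced by the stress factor ATF4. Igfbp2 is another hepatocyte product, whose blood level is known to be low in obesity. Igfbp3 carries most circulating IGF in a ternary complex with the acid-labile subunit and is made in liver mainly by cells other than hepatocytes.

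The stretch before the Igfbp1 start is shown because the insulin-repressed character of this gene is attributed to paired FOXO sites within it. It covers the 250 bases before the start in RefSeq (GRCm38.p6, chr11:7197537-7197786, plus strand). Capitals mark CAAAACAA, 108 to 101 bases before the start, and TTATTTTG, 98 to 91 bases before it.
Igfbp1 upstream: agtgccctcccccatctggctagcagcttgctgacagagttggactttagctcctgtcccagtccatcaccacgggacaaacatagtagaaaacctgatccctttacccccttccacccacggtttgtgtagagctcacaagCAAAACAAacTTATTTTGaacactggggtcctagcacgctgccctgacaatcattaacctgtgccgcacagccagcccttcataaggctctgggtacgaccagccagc
Both motifs, and GTAAACAA, were searched on both strands in windows from 250 bases before to 50 bases after each start. CAAAACAA was found in 825 of 32851 windows (2.51%), TTATTTTG in 544 (1.66%), both in 33 (0.1%) and GTAAACAA in 403 (1.23%). Of the 8 windows of the 7 members, the Igfbp1 window held CAAAACAA and TTATTTTG, the others held neither, and GTAAACAA was in 0 of 8. Among Pck1, G6pc, Irs2, Ppargc1a and Asns, which are set beside Igfbp1 further on, Irs2 held CAAAACAA on the minus strand, 38 to 31 bases before its start. A match describes letters in a window and nothing about binding.

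The array reads each gene through a probe of about 60 bases, and the probe of Igfbp2 is shown because its letters read as the end of a coding frame. In that frame it runs without a stop codon up to its last 3 bases, in capitals, which are a stop codon.
Igfbp2 probe: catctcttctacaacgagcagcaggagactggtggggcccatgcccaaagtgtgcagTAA
It lies at chr1:72898677-72898736 on the plus strand of mm9, the build of the scanner files, in which all probe positions are given here. The Igfbp1 probe lies at chr11:7102442-7102501 on the plus strand. The tested Igfbp3 probe lies on the minus strand at chr11:7106193-7106252, 3691 bases beyond it. Igfbp2 and Igfbp5 form the same arrangement on chromosome 1, where the tested Igfbp5 probe is at chr1:72904829-72904888 on the minus strand, 6092 bases from the Igfbp2 probe. In both pairs the genes point at each other, and the RefSeq gene table lists 0 genes between them. The 2 Igfbp4 probes are at chr11:98909591-98909650 and chr11:98913334-98913393 on the plus strand, the Igfbp6 probe at chr15:101979852-101979911 on the plus strand and the Igfbp7 probe at chr5:77778355-77778414 on the minus strand. Exon and UTR positions of the probes were not determined, since no annotation of mm9 was used here.

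Between 28804 and 34432 probes (50.9 to 60.8%) were well above background on each array, and 0 spots were saturated. Arrays of 1 group correlated between 0.9742 and 0.9955. All 7 hepatocyte markers were well above background on all 24 arrays, with a mean per mouse of 15.99 to 16.39 on the log2 signal scale. Reference mice 4 and 5 were singled out after the data were seen. Of the 30003 tested probes, 6.98% in mouse 4 and 14.2% in mouse 5 had their signal above that of all the other 22 mice. This share was not taken for any other mouse, so that it does not rank these mice among the rest. They are named where a member depends on them, and results without both are given.

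In HFoleic livers, 2 of the 8 member probes fell against reference and none rose: Igfbp1 and Igfbp2, the insulin-repressed and the obesity-related hepatocyte products. The probe-wide share of calls in that comparison was 7.23% (2170 of 30003 probes, 1214 higher and 956 lower), and 3.19% were called lower. In HFepa against reference, 0 of 8 member probes were called, beside 0.393% of all probes, and 1 of 8 had an unadjusted p under 0.05, beside 13.5% of all probes. In HFepa against HFoleic, limma called 0 of 8 member probes and 0 of all probes (0%), while 2 member probes and 2910 of all probes (9.7%) had an unadjusted p under 0.05 and the methods' t-test also called 0.

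**Figure D1:**
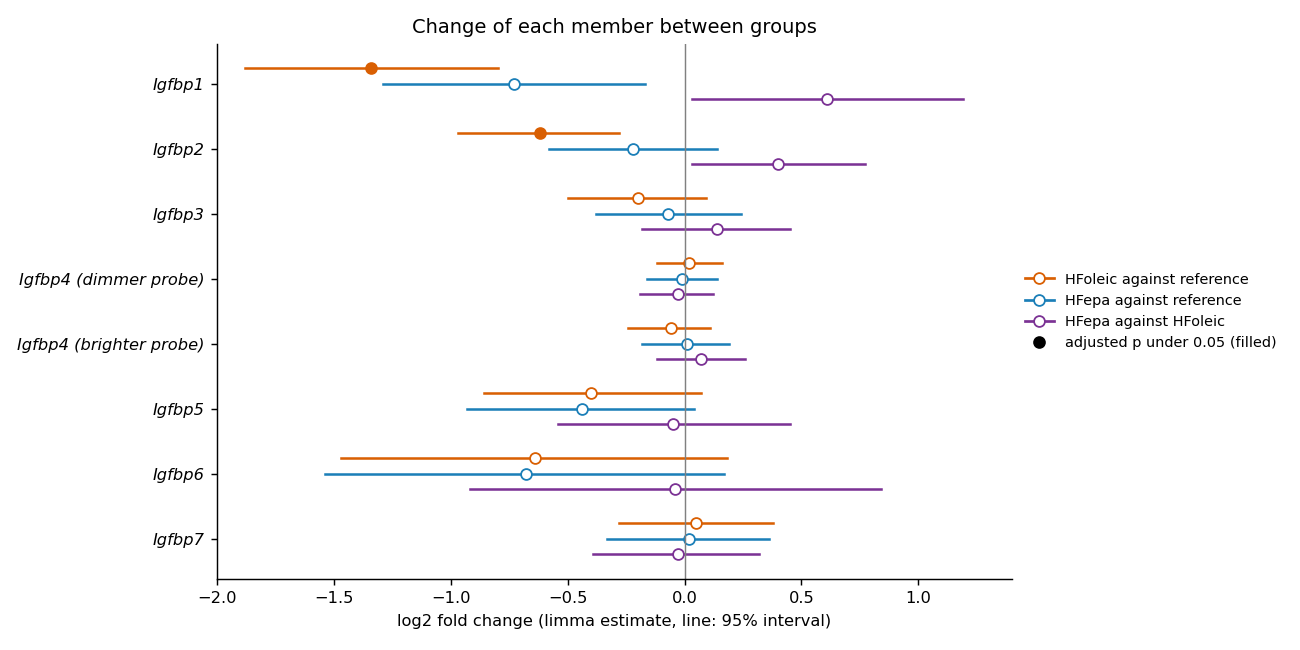
Log2 fold change of each tested member probe (x axis, limma estimate, lines: 95% intervals) in the 3 comparisons, filled where the adjusted p was under 0.05. The filled points are Igfbp1 at -1.34 and Igfbp2 at -0.62, both in HFoleic against reference, and the widest intervals are those of Igfbp6.

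Igfbp1 showed the largest change among the members. Its log2 signal was 14.13 in the lowest reference mouse, 15.71 at the median and 16.55 in the highest. In HFoleic mice it was 13.53, 14.15 and 15.38. In HFepa mice it was 14.41, 14.74 and 15.30. All 8 HFoleic mice lay below the reference mean, 4 of them below every reference mouse, but the groups overlapped through HFoleic mouse 3 at 15.38 and reference mouse 8 at 14.13. The group means were 15.56 ± 0.71 (SD, n = 9) in reference, 14.22 ± 0.58 (n = 8) in HFoleic and 14.83 ± 0.33 (n = 7) in HFepa. Igfbp1 fell by 1.34 on the log2 scale in HFoleic (SE 0.26, 95% interval -1.88 to -0.80), to 39.5% of the reference signal, with an adjusted p of 0.00344 in limma. The fall was present within each of the 3 slides (-0.87, -2.08 and -1.28) and both slide rows (-1.61 and -1.02), and was at -1.17 without reference mice 4 and 5 (adjusted p = 0.0112). As in any bulk tissue, fewer cells of a type and less RNA per cell cannot be told apart. Of 7 hepatocyte markers, 2 were called lower in HFoleic, and the median of the list was -0.01. Tat, a tyrosine-degrading enzyme, changed by -0.63 (SE 0.14, adjusted p = 0.00858) and Cps1, the entry enzyme of the urea cycle, by -0.89 (SE 0.15, adjusted p = 0.00166). Not called were Alb at 0.00, Serpina1a at -0.01, Apoa1 at -0.10 and Hnf4a at 0.20 (adjusted p 0.169 to 0.984). Ttr, a thyroid hormone carrier of plasma, was at 0.12 on its brightest probe (adjusted p = 0.218) and rose by 0.53 on a dimmer one (adjusted p = 0.00483). The mean over the list ran from 16.16 to 16.39 in reference and from 16.00 to 16.19 in HFoleic. The part of these markers in the Igfbp1 difference was not tested.

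Under the fish oil lineage, Igfbp1 took values between those of the other groups. All 7 HFepa mice were below the reference mean, and 7 of the 9 reference mice were above every HFepa mouse. The difference from reference was -0.73 (SE 0.27, 95% interval -1.29 to -0.17) with an adjusted p of 0.220, so that it was not called. Without reference mouse 8, the mouse with the lowest reference signal, it was -0.91 and was called (adjusted p = 0.0477), and without reference mice 4 and 5 it was -0.56 (adjusted p = 0.433). Against HFoleic the difference was 0.61 (SE 0.28, 95% interval 0.03 to 1.19, adjusted p = 0.485), with all 7 HFepa mice above the HFoleic mean. Both comparisons against reference share the reference arrays.

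**Figure D2:**
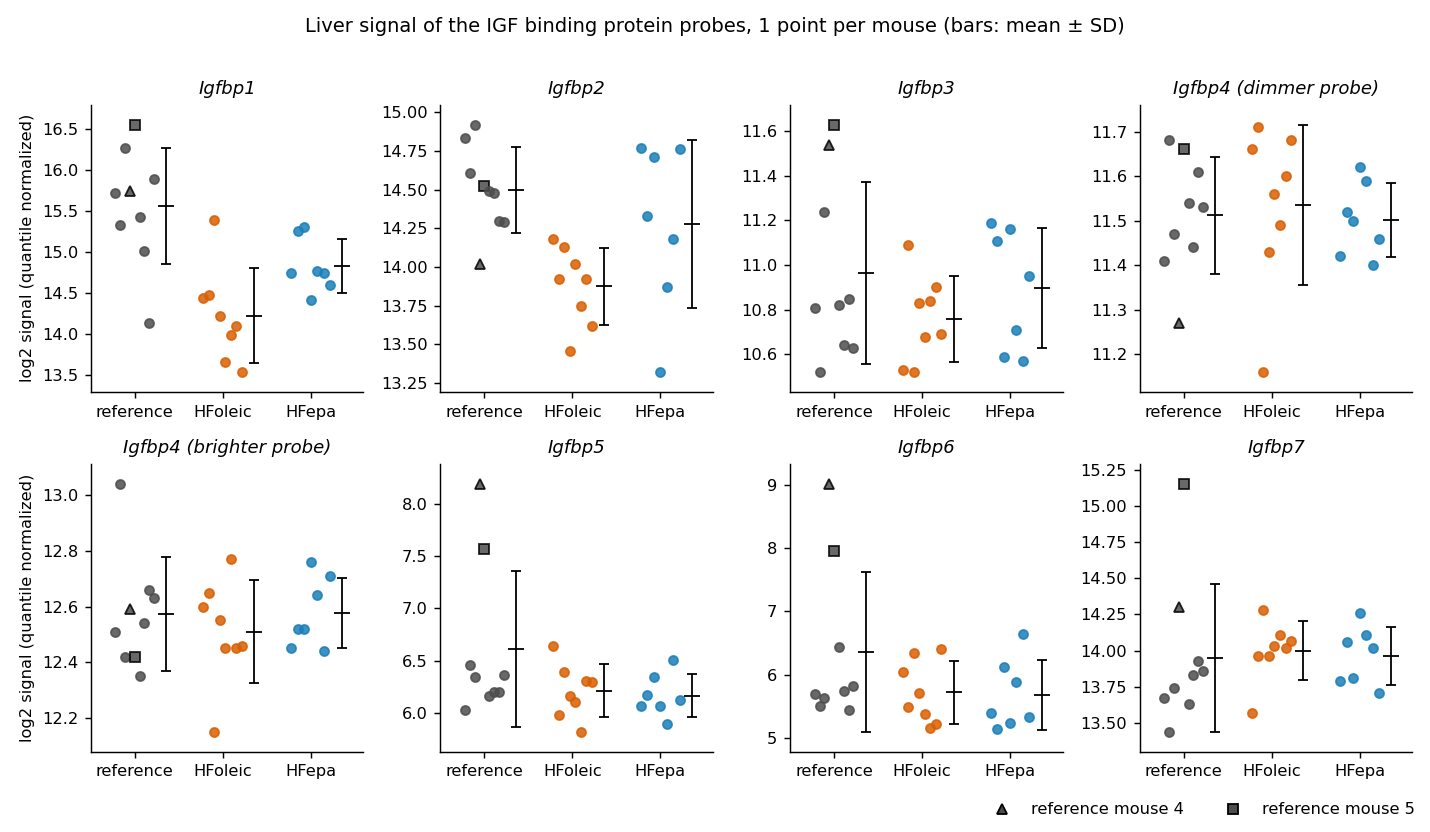
Log2 signal (y axis, quantile normalized) of each tested member probe in every mouse, grouped as reference, HFoleic and HFepa, with bars for the mean ± SD and separate symbols for reference mice 4 and 5. Igfbp1 and Igfbp2 are lower in HFoleic, and the 2 marked mice stand above all others for Igfbp3, Igfbp5, Igfbp6 and Igfbp7.

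Igfbp2 changed in the same direction and by a smaller amount. Reference mice ran from 14.02 through a median of 14.49 to 14.92 on the log2 signal scale. HFoleic mice ran from 13.46 through 13.92 to 14.18. HFepa mice ran from 13.32 through 14.33 to 14.77. Of the 9 reference mice, 8 were above every HFoleic mouse, and the exception was reference mouse 4 at 14.02, while the HFepa mice spanned nearly the whole range of both other groups. Igfbp2 fell by 0.62 in HFoleic (SE 0.17, 95% interval -0.97 to -0.28), to 65% of reference, with an adjusted p of 0.0229. Within slides the difference was -0.46, -0.72 and -0.71, and within rows -0.68 and -0.56. The call was lost when HFoleic mouse 4 (-0.56, adjusted p = 0.0517) or HFoleic mouse 8 (-0.59, adjusted p = 0.0506) was left out, these being the lowest mice of their group. HFepa differed from reference by -0.22 (SE 0.17, 95% interval -0.58 to 0.14, adjusted p = 0.643) and from HFoleic by 0.40 (SE 0.18, 95% interval 0.03 to 0.77, adjusted p = 0.463), neither of which was called.

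Igfbp3 and Igfbp4, carriers of IGF in blood and tissue, were not called in any comparison. Igfbp3 gave group means of 10.96 ± 0.41 in reference, 10.76 ± 0.20 in HFoleic and 10.90 ± 0.27 in HFepa, with single mice between 10.52 and 11.63. The HFoleic difference was -0.20 (SE 0.14, 95% interval -0.50 to 0.09, adjusted p = 0.454) and shrank to -0.03 without reference mice 4 and 5. The HFepa difference from reference was -0.07 and became 0.11 without these mice. A second Igfbp3 probe was well above background on 0 of 24 arrays and was not tested. Igfbp4 was the steadiest member: its brighter probe had group means of 12.57 ± 0.21, 12.51 ± 0.18 and 12.58 ± 0.12 in reference, HFoleic and HFepa, and its dimmer probe 11.51 ± 0.13, 11.54 ± 0.18 and 11.50 ± 0.08. The 2 probes had opposite signs in every comparison, HFoleic against reference being -0.06 (95% interval -0.24 to 0.11) for the brighter and 0.02 (-0.12 to 0.16) for the dimmer one.

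Igfbp5 and Igfbp6 were dim, and their group differences rested on reference mice 4 and 5. Igfbp5, a binding protein held in extracellular matrix, was well above background in 9 of 9 reference, 7 of 8 HFoleic and 6 of 7 HFepa mice. Igfbp6, which prefers IGF2, was so in 7 of 9, 3 of 8 and 3 of 7, and thus passed the filter through the reference group only, where it was highest, so that the sign of its differences from reference was favoured by the filter. Mouse 4 read 8.19 and mouse 5 read 7.57 for Igfbp5, while the other 22 mice lay between 5.82 and 6.64. For Igfbp6 these mice read 9.01 and 7.96, and the others lay between 5.14 and 6.65. The second Igfbp5 probe was well above background on 1 of 24 arrays, that of mouse 4, and was not tested. HFoleic differed from reference by -0.40 for Igfbp5 (SE 0.23, adjusted p = 0.325) and -0.64 for Igfbp6 (SE 0.40, adjusted p = 0.378), and without mice 4 and 5 both differences were -0.04. HFepa differed from reference by -0.44 and -0.68 (adjusted p = 0.424 and 0.504), and by -0.08 for both genes without these mice.

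Igfbp7, a related protein of blood vessels and stromal cells that binds IGF weakly, had means of 13.95 ± 0.51 in reference, 14.00 ± 0.20 in HFoleic and 13.97 ± 0.20 in HFepa. The HFoleic difference was 0.05 (SE 0.16, 95% interval -0.28 to 0.38, adjusted p = 0.907). Mice 4 and 5 read 14.30 and 15.15, above the highest of the others at 14.28, and without them the difference was 0.27 (adjusted p = 0.0924). Igfbp3 was also above all others in both, at 11.54 and 11.63 against at most 11.24. Igfbp1 was above all others in mouse 5 alone, at 16.55 against at most 16.26, while Igfbp2 and Igfbp4 lay within the range of the others in both mice.

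Some markers of other cells were also above all the mice other than these 2 in mouse 4 or mouse 5. Of all tested probes, 6.98% in mouse 4 and 14.2% in mouse 5 were so. Whether any marker list went beyond these shares was not tested. Of 9 stellate cell and fibroblast markers, 3 in mouse 4 and 5 in mouse 5 were above all other mice. Col1a1, a fibrillar collagen chain, read 9.02 and 11.18 against at most 8.55, and Pdgfrb, a receptor of mesenchymal cells, read 9.16 and 10.40 against at most 8.35. Lrat, Des, Acta2 and Hand2 stayed within the range of the others. The mean of this list ran from 8.46 to 10.09 in reference, 8.55 to 9.05 in HFoleic and 8.64 to 9.31 in HFepa. Cholangiocyte markers were above all others for 0 of 6 in mouse 4 and 5 of 6 in mouse 5, with Spp1 at 13.26 against at most 11.56. Mesothelial markers were so for 1 and 2 of 4, endothelial for 2 and 1 of 8, Kupffer cell for 1 and 1 of 6 and hepatocyte for 1 and 2 of 7. Red blood cell markers were above all others for 4 of 4 in mouse 4 and 0 of 4 in mouse 5, exocrine pancreas markers for 0 of 5 in both, and adipocyte markers for 2 and 1 of 4. Adipoq, an adipocyte hormone, read 9.71 and 8.59 against at most 6.17. Markers also went the other way. In mouse 5 the Kupffer cell marker Timd4 read 5.77 against at least 6.98. The endothelial markers Clec4g and Fcgr2b read 12.43 and 9.79 there against at least 12.63 and 9.93. Ttr, Lep, Alas2 and Ctrb1 were below all others in mouse 5 too, and Hnf4a in mouse 4. Between the diets, 1 of the 9 stellate cell and fibroblast markers was called in HFoleic against reference, Lrat, which stores retinol as esters, at 0.56 (SE 0.10, adjusted p = 0.0015), and 1 of 4 tested cholangiocyte markers, Sox9, a transcription factor of bile ducts, at -0.65 (SE 0.18, adjusted p = 0.0279), with its other probe at -0.19 (adjusted p = 0.415). No marker of the endothelial, Kupffer cell, adipocyte, red blood cell or pancreas lists was called there, with 8, 6, 3, 4 and 1 tested. Adipoq and the mesothelial markers did not pass the filter and could not be called. The part of these cells in the Igfbp3, Igfbp5, Igfbp6 and Igfbp7 signals was not tested.

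**Figure D3:**
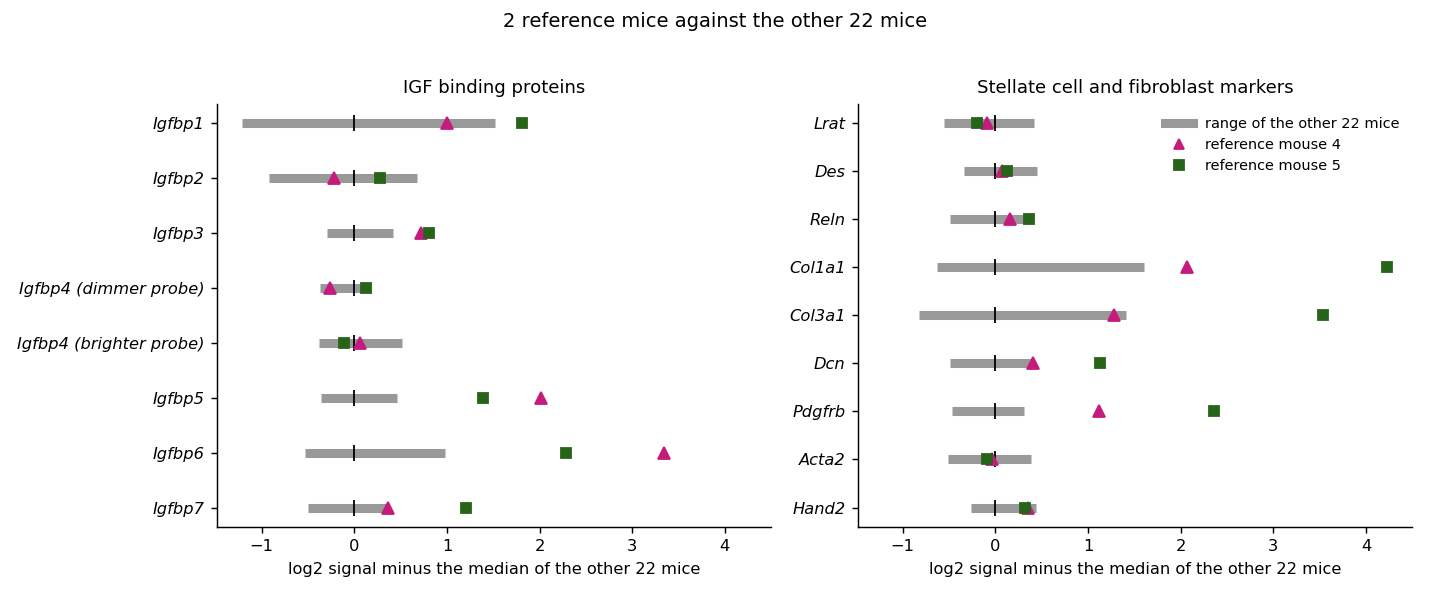
Log2 signal of reference mice 4 (triangles) and 5 (squares) minus the median of the other 22 mice (x axis, grey bars: range of those 22) for the member probes and for 9 stellate cell and fibroblast markers. Igfbp5 and Igfbp6 lie furthest beyond the grey bars among the members, and Col1a1, Col3a1 and Pdgfrb among the markers, with Col3a1 beyond its bar in mouse 5 only.

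The neighbouring genes were compared within each mouse, as the difference of their log2 signals. Igfbp1 minus Igfbp3 ran from 3.28 to 5.26 in reference (mean 4.59 ± 0.59), from 2.84 to 4.86 in HFoleic (3.46 ± 0.65) and from 3.25 to 4.71 in HFepa (3.93 ± 0.48). The groups overlapped, with HFoleic lowest. The change between reference and HFoleic was -1.14 (exact permutation test, two-sided, p = 0.00358, adjusted p = 0.0215 over 6 tests), and it stayed at -1.14 without reference mice 4 and 5 (adjusted p = 0.0238). Within slides it was -0.65, -2.02 and -0.93, and within rows -1.52 and -0.71. Igfbp1 and its neighbour thus changed by unequal amounts. HFepa differed from reference by -0.66 (exact permutation adjusted p = 0.102) and from HFoleic by 0.47 (exact permutation adjusted p = 0.209). The call of HFepa against reference appeared without reference mouse 8 (-0.83, exact permutation adjusted p = 0.00793) or HFepa mouse 3 (-0.79, exact permutation adjusted p = 0.0468), and that against HFoleic without HFoleic mouse 3 (0.67, exact permutation adjusted p = 0.035).

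For Igfbp2 minus Igfbp5 the within-mouse differences were 7.88 ± 0.93 in reference, 7.66 ± 0.26 in HFoleic and 8.11 ± 0.52 in HFepa. The lowest value, 5.83, belonged to a reference mouse. HFoleic differed from reference by -0.22 (exact permutation adjusted p = 0.608), with -0.06, -0.74 and 0.11 within slides. Without reference mice 4 and 5, whose Igfbp5 was high, the difference was -0.65 (exact permutation adjusted p = 0.0028). HFepa differed from reference by 0.23 (exact permutation adjusted p = 0.608) and from HFoleic by 0.45 (exact permutation adjusted p = 0.108). Leaving out HFepa mouse 4 took the latter to 0.59 (exact permutation adjusted p = 0.022).

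Mouse-to-mouse spread differed widely among the members. The residual SD within groups was 0.88 for Igfbp6, 0.58 for Igfbp1, 0.50 for Igfbp5, 0.37 for Igfbp2, 0.35 for Igfbp7 and 0.31 for Igfbp3, while the median over all tested probes was 0.18. Igfbp1 was thus at percentile 97.8 of all probes and Igfbp6 at percentile 99.5. The spread of Igfbp6 lay mostly in the reference group, which holds mice 4 and 5, with an SD of 1.26 against 0.49 in HFoleic and 0.56 in HFepa. For Igfbp5 the SDs were 0.75, 0.26 and 0.21. Igfbp6 was also well above background on only 13 of 24 arrays. The Igfbp4 probes, at 0.18 and 0.14, were at percentiles 46.8 and 23.9. Over 21 pairs of members, deviations from the group means were correlated across the 24 mice. After adjustment, Pearson's r passed in 1 pair: Igfbp5 with Igfbp6, at r = 0.89 (permutation p = 0.00029, adjusted p = 0.00609) and rho = 0.72 (permutation p adjusted to 0.0464). That relation rested on reference mice 4 and 5, which are also the 2 mice farthest from the Igfbp5 median. Without them r was 0.67 (permutation p adjusted to 0.396) where deviations were taken from the means of all mice, and 0.50 (permutation p adjusted to 0.119) where the reference mean was recomputed. Within slides r was 0.93, -0.01 and 0.97. Igfbp2 with Igfbp7 had r = -0.38 (permutation p adjusted to 0.205) and rho = -0.57 (permutation p adjusted to 0.0464).

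Of 5 insulin-repressed fasting genes, 4 were called lower in HFoleic livers, as Igfbp1 was, and none rose, beside 3.19% of all probes called lower. The list was chosen with earlier results of these data known, so that this count is no independent support. Pck1, the first committed enzyme of gluconeogenesis, had means of 16.82 ± 0.26 in reference and 16.08 ± 0.24 in HFoleic, a change of -0.74 (SE 0.11, adjusted p = 0.000602). G6pc, which releases free glucose, changed by -0.52 (SE 0.12, adjusted p = 0.0087). Irs2, an adaptor of the insulin receptor, changed by -1.16 (SE 0.20, adjusted p = 0.00169). Ppargc1a, a coactivator of gluconeogenic genes, changed by -0.54 (SE 0.15, adjusted p = 0.0296), while Foxo1, the transcription factor, was at -0.12 (SE 0.08, adjusted p = 0.395). By quantitative PCR the study reported Pck1 and Irs2 lower in HFoleic too, but no significant change of Ppargc1a. The median of the list was -0.54, beside 0 for all probes. In HFepa against reference 0 of 5 were called at a median of -0.46, the smallest p-values being those of G6pc (-0.53, adjusted p = 0.0543) and Ppargc1a (-0.62, adjusted p = 0.0700). In HFepa against HFoleic 0 of 5 were called at a median of 0.18, with Pck1 at 0.44 (adjusted p = 0.201) and Irs2 at 0.70 (adjusted p = 0.267).

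The ATF4 targets did not move together. Of 5 in HFoleic against reference, Asns, asparagine synthetase, fell by 1.67 (SE 0.38, adjusted p = 0.00882) and Chac1, a glutathione-degrading enzyme, rose by 1.26 (SE 0.26, adjusted p = 0.00535). The list median was -0.03. In HFepa against reference 0 of 5 were called, with Asns at -0.99 (adjusted p = 0.262) and Trib3 at -0.39 (adjusted p = 0.319), and in HFepa against HFoleic 0 of 5, with Chac1 at -0.73 (adjusted p = 0.387) and Trib3 at -0.34 (adjusted p = 0.560).

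Igfbp1 also varied from mouse to mouse with several of these genes. Deviations from group means were compared over 24 mice for 10 genes, and 4 passed after adjustment. G6pc had r = 0.76 (permutation p = 0.00013, adjusted p = 0.0013) and rho = 0.72 (permutation p adjusted to 0.0019). Irs2 had r = 0.65 (permutation p = 0.00123, adjusted p = 0.00615) and rho = 0.59 (permutation p adjusted to 0.0136). Asns had r = 0.57 (permutation p = 0.00673, adjusted p = 0.0224) and rho = 0.59 (permutation p adjusted to 0.0136). Pck1 had r = 0.57 (permutation p = 0.0119, adjusted p = 0.0298), but its rho of 0.46 did not pass (permutation p adjusted to 0.0676). The other 6 genes had r between -0.44 and 0.24, and none of them passed. Reference mouse 8 had the lowest Igfbp1 deviation, -1.43, and was also low for the 4 genes, with deviations of -0.54 for G6pc, -1.02 for Irs2, -0.68 for Pck1 and -1.66 for Asns.

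Leaving out the 2 mice farthest from the median of Igfbp1, reference mouse 8 and HFoleic mouse 3, gave r = 0.57 for G6pc, 0.60 for Irs2, 0.50 for Asns and 0.39 for Pck1, the last of which no longer passed (permutation p adjusted to 0.121). With the group means recomputed over the other 22 mice, r was 0.52 for G6pc and 0.59 for Irs2 (permutation p adjusted to 0.0586 for both). It was 0.49 for Asns (permutation p adjusted to 0.0802) and 0.34 for Pck1 (permutation p adjusted to 0.226), so that 0 of 10 passed. Without these 2 mice, G6pc and Irs2 (permutation p adjusted to 0.027 for both) and Asns (permutation p adjusted to 0.0477) thus passed only with the means of all mice kept. Without reference mice 4 and 5, G6pc (r = 0.80) and Irs2 (r = 0.64) passed and Pck1 (0.55) and Asns (0.53) did not. Within the 3 slides of 8 mice each, r was 0.53, 0.21 and 0.94 for G6pc, 0.52, 0.31 and 0.92 for Irs2, 0.70, 0.37 and 0.84 for Pck1 and 0.37, 0.19 and 0.78 for Asns. All were above 0, and those of the second slide were the lowest. Within rows of 12 mice, r was 0.82 and 0.76 for G6pc, 0.32 and 0.84 for Irs2, 0.49 and 0.69 for Asns, and -0.10 and 0.83 for Pck1, which thus had no positive relation in the first row.

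**Figure D4:**
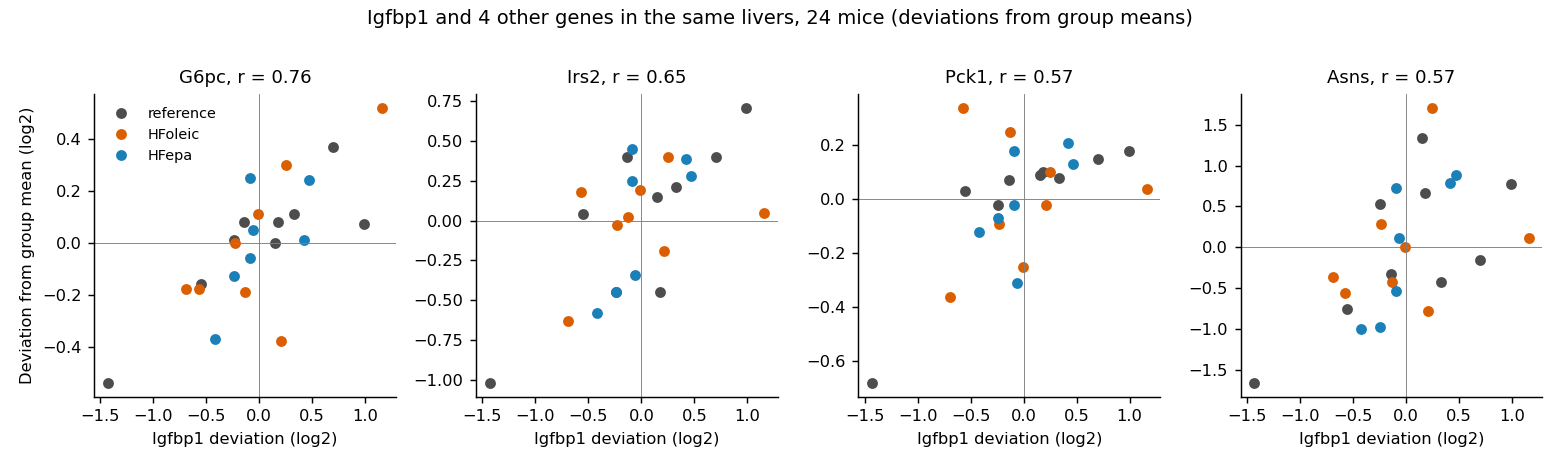
Deviation of Igfbp1 from its group mean (x axis, log2) against that of G6pc, Irs2, Pck1 and Asns (y axes, log2), with 1 point per mouse and colours for the 3 groups. The point at the lower left of each panel is reference mouse 8, at -1.43 for Igfbp1, and r is 0.76, 0.65, 0.57 and 0.57 over all 24 mice.

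Of 32 other genes of the IGF axis, 24 were tested, each on its brightest probe. In HFoleic against reference 1 rose and 0 fell, with a median of 0.00, beside calls for 7.23% of all probes. Igf1, the main growth factor made in liver, had means of 15.66 ± 0.08 in reference, 15.59 ± 0.17 in HFoleic and 15.67 ± 0.10 in HFepa. Its differences from reference were -0.07 (SE 0.06, adjusted p = 0.582) and 0.01 (SE 0.06, adjusted p = 0.957), on the brightest of 3 tested probes. A dimmer probe was at 1 (SE 0.49, adjusted p = 0.245) in HFoleic and 0.92 (SE 0.51, adjusted p = 0.453) in HFepa. Another was at -0.28 (SE 0.22, adjusted p = 0.504) and -0.04 (SE 0.22, adjusted p = 0.972). Igf2 did not pass the filter. None of the 3 receptors was called: Igf1r, the IGF1 receptor, was at -0.22 (adjusted p = 0.176) and Igf2r, which clears IGF2, at -0.02 (adjusted p = 0.936). Of the 6 tested genes of the ternary complex and of binding protein cleavage 0 were called, with Igfals, the acid-labile subunit, at 0.23 in HFoleic (SE 0.11, adjusted p = 0.207) and 0.36 in HFepa (SE 0.11, adjusted p = 0.130), and Adamts1, a secreted protease, at -0.26 in HFoleic (adjusted p = 0.270). Of the 6 tested IGFBP-related proteins 0 were called, with Cyr61 at 0.47 (SE 0.15, adjusted p = 0.0614) and Ctgf at -0.78 (SE 0.27, adjusted p = 0.0751) in HFoleic, both matricellular proteins.

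Growth hormone signalling, which drives Igf1 in liver, held the 1 call of the IGF axis when each gene was read on its brightest probe. Stat5b, the transcription factor of that pathway, rose by 0.34 in HFoleic (SE 0.10, adjusted p = 0.0315) on its brighter probe, and the other probe was at 0.01 (adjusted p = 0.966). Probes of a gene disagreed for the receptor Ghr too, where 2 dimmer probes rose by 0.74 and 0.43 (adjusted p = 0.0235 and 0.0212) and the brightest was at 0.23 (adjusted p = 0.159). For Stat5a a dimmer probe rose by 0.41 (adjusted p = 0.0114) and the brighter was at -0.08. Socs2, a feedback inhibitor of this pathway, had the smallest p of the list between the lineages, at 1.28 in HFepa against HFoleic (SE 0.36, adjusted p = 0.229), followed by Stat5b at -0.29 (adjusted p = 0.339). In HFepa against reference 0 of 24 were called at a median of 0.03, and in HFepa against HFoleic 0 of 24 at 0.04.

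**Figure D5:**
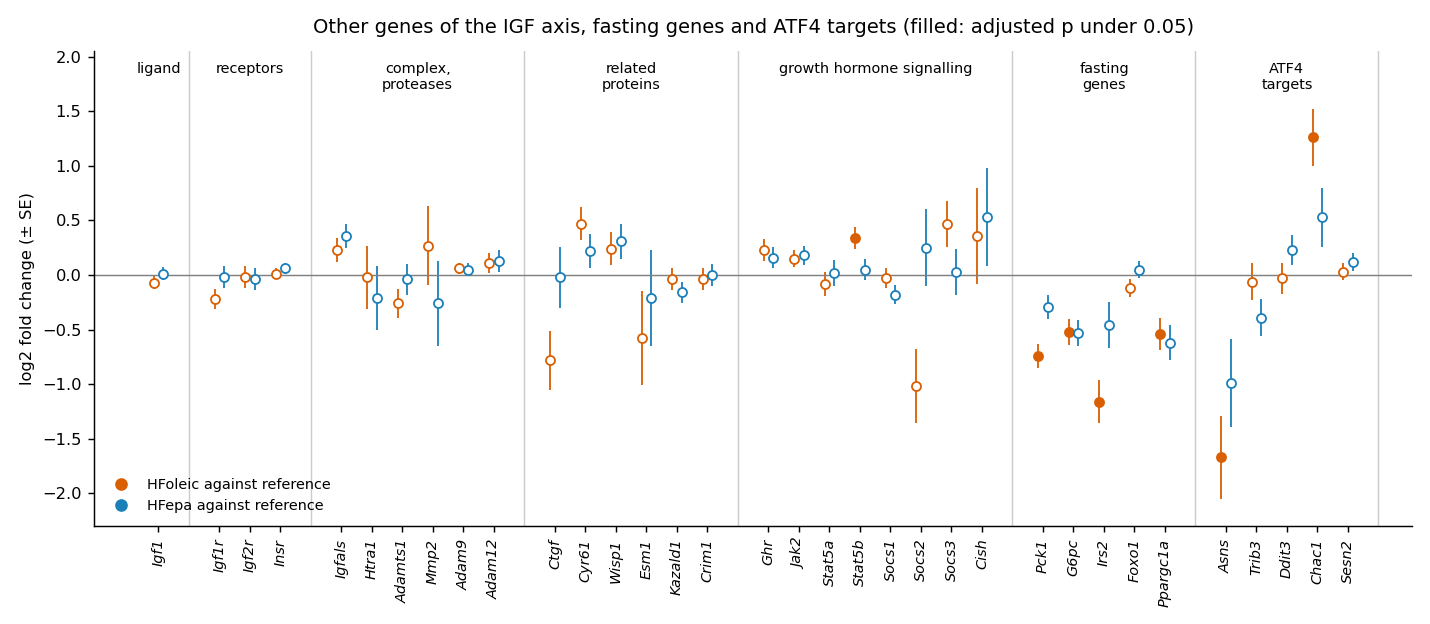
Log2 fold change (y axis, ± SE) of the tested genes of the IGF axis, of the insulin-repressed fasting genes and of the ATF4 targets in HFoleic and in HFepa against reference, filled where the adjusted p was under 0.05. The filled points are Stat5b at 0.34, Pck1, G6pc, Irs2 and Ppargc1a between -1.16 and -0.52, Asns at -1.67 and Chac1 at 1.26, all in HFoleic.

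Genes with the pattern most like each called member were ranked by r of deviations from group means over 24 mice, among 19047 gene symbols, as a description. For Igfbp1 the first 5 were Lrrc58 (0.791), Gpr37l1 (0.762), G6pc (0.759), Jund (0.744, with a rho of 0.388) and Sema3f (0.736). For Igfbp2 the first was Tango6 at 0.923 (rho 0.916), which changed by -0.65 in HFoleic against reference (adjusted p = 0.0422). It was followed by Rbpms (0.798), Cluh (0.774), the transcript ENSMUST00000177969 (0.772) and E130012A19Rik (0.771). Of these, Cluh changed by -0.28 (adjusted p = 0.00718) and E130012A19Rik by -0.93 (adjusted p = 0.0096) in the same comparison.

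Clock genes were read beside the members, as the time of killing is not given in the sources used here. In HFoleic against reference, 0 of 4 tested genes of the Bmal1 phase were called, with Arntl at -0.70 (adjusted p = 0.0663) and Nfil3 at -0.22 (adjusted p = 0.494). In the Dbp phase 1 of 6 was called, Nr1d2 at 0.58 (adjusted p = 0.0100), beside 7.23% of all probes, and all 6 had positive values. A clock score, the mean of the first list minus that of the second, was -0.17 ± 0.64 in reference, -1.16 ± 0.66 in HFoleic and -0.79 ± 1.08 in HFepa. With this score as a covariate Igfbp1 was at -0.85 in HFoleic against reference and was still called (adjusted p = 0.0481), while Igfbp2 was at -0.46 and was not (adjusted p = 0.2). The score itself differed between the groups, and diet and clock phase cannot be told apart where both moved.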

How the data were processed

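Liver RNA of 24 mice was hybridised in 1 colour on Agilent arrays read, per the labels' processing notes, with Feature Extraction 10.10.1.1. The deposited scanner files hold median signal intensities and marks of 0 or 1 (scores, per the file headers) for spots well above background and outlier spots. The authors' value table holds log2 median signals, which they filtered by a rule that is not stated and quantile normalized (32176 probes, 2550 empty cells). Its columns correlated with their own arrays at 0.9997 or more.

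Here log2 median signals were quantile normalized, outlier spots left out (134 to 627 per array), and 30003 of 56605 probes kept whose spots stood well above background in 75% or more of any group's arrays. Signals are relative and quantile normalization sets the same distribution on every array. A group-means model was fitted to all 24 arrays with limma 3.58.1 (R 4.3.3), with moderated two-sided contrasts and Benjamini-Hochberg adjustment over all tested probes, and calls at an adjusted p under 0.05. Where a gene had several tested probes, the brightest was used. Neighbouring genes were compared with exact permutation tests, and correlations with 100000 permutations within groups (scipy 1.17.1). No saturated spot occurred, and the number of arrays limits the precision.

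All members and every tested probe are named. From the gene lists other than cell type markers, called genes are named or, where none was called, those with the smallest unadjusted p, and for each called member the 5 symbols with the highest r. Other probes of a gene, and single marker genes, were chosen after their values were seen. Members and gene lists were chosen with earlier results of these data known. Same-numbered mice of different groups had deviations that correlated from -0.298 to 0.348 over 22 pairs, so that numbers were not taken to pair mice. Alternatives were the processed signal, normexp background correction, the authors' table, other filters, slide, slide row and number as blocks, the clock score, the methods' t-test and leaving out mice. Fitting was tested on simulated data. Probe positions are those of the scanner files (mm9), and promoters and neighbours come from RefSeq tables (GRCm38.p6).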

Additional observations from a re-analysis of the deposited data

Results flagged for a closer look

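In 3 of 24 combinations of member probe and group, 1 mouse lay far from the others of its group, as measured by its gap to the nearest mouse over the range of the group. Chance gives such a mouse in about 1 in 20 groups. Reference mouse 2 was highest for the brighter Igfbp4 probe, at 13.04 with the next at 12.66 (ratio 0.551). HFoleic mouse 1 was lowest for Igfbp7, at 13.57 with the next at 13.96 (ratio 0.549). Reference mouse 5 was highest for Igfbp7, at 15.15 with the next at 14.30 (ratio 0.497). The values for Igfbp5 and Igfbp6 in reference mice 4 and 5 were not picked out in this way, since these mice lie near each other.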

How the results depend on the processing

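Igfbp1 kept its fall and its call in HFoleic against reference under 13 alternatives (-1.36 to -0.85, adjusted p 0.00191 to 0.0481) and when any 1 mouse was left out (-1.52 to -1.21, adjusted p 0.000259 to 0.00867). Igfbp2 was at -0.69 to -0.46 (adjusted p 0.00204 to 0.2), and lost its call with the clock score as a covariate (-0.46, adjusted p = 0.2). It was at -0.68 to -0.56 with 1 mouse left out. Leaving out reference mice 4 and 5 together was chosen after seeing the data.

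Probes called in HFepa against reference numbered 118, and 47 with the processed signal, 0 with no filter on dim probes, 13 with only the 2 groups compared in the fit, 0 with the methods' t-test, 4 with the clock score and 1 without reference mice 4 and 5. In HFepa against HFoleic they numbered 0, and 2 with probes well above background on all arrays and 5 without these mice. In HFoleic against reference the clock score left 609 of 2170, with 1 member probe called in place of 2. The methods' t-test called 1746 probes there. With 1 mouse left out, calls ran from 1602 to 3097, from 0 (without HFepa mouse 2 or 6) to 499 (without reference mouse 8) in HFepa against reference and from 0 to 15 (without HFepa mouse 5) in HFepa against HFoleic. Member probes called ran from 1 to 2, 0 to 1 and 0 to 0, and unequal neighbour pairs from 1 to 2. The replicate block gave 1747, 104 and 0 probes called, and 2, 0 and 0 member probes, and changed no call of a member.

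Small differences that were not called changed sign. With the slide as a block, HFepa against HFoleic was 0.01 for both Igfbp5 and Igfbp6. With the clock score Igfbp4 was at -0.08 in HFepa against reference. Without reference mice 4 and 5, HFepa against reference was 0.11 for Igfbp3, -0.01 for Igfbp4 and -0.20 for Igfbp2 minus Igfbp5, and the correlation of Igfbp3 with Igfbp6 was -0.60 in place of 0.36 (-0.28 without the 2 arrays farthest from the median, the same mice, with the means of all mice kept). Unequal neighbour pairs then numbered 2 in place of 1, the added pair being that with the dim Igfbp5. Called correlations between members numbered 0 in place of 1 (also 0 without the 2 farthest arrays), and those of Igfbp1 with the 10 genes 2 in place of 4. The latter numbered 0 without reference mouse 8 and HFoleic mouse 3 with group means recomputed, where that with Sesn2 was -0.01 in place of 0.17, an alternative also chosen after seeing the data. With 1 mouse left out, HFepa against reference ran from -0.12 to 0.02 for Igfbp3, -0.02 to 0.06 for Igfbp4, -0.05 to 0.17 for Igfbp7 and -0.03 to 0.37 for Igfbp2 minus Igfbp5. HFepa against HFoleic ran from -0.10 to 0.01 for Igfbp5, -0.20 to 0.06 for Igfbp6 and -0.09 to 0.01 for Igfbp7, and HFoleic against reference from -0.01 to 0.20 for Igfbp7. The cause of these changes was not tested. Igfbp5 and Igfbp6 had no value where probes had to be well above background on all arrays, and their low signal over background limits their precision.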
